A study of Mus musculus with 10 samples.

Results

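The genes described here are Acnat1, Acnat2 and Baat, which encode acyl-CoA amino acid N-acyltransferases, and Acot1, Acot2, Acot3, Acot4 and Acot6, which encode type I acyl-CoA thioesterases. They are 8 of the 19933 genes tested, and each was read by 1 probe set that the array annotation gives to that gene alone. They were chosen by their symbols, with the measured log2 differences between genotypes in these same arrays in view, so those differences are given as a description, without a test. The livers came from male mice, 5 wild type (WT) and 5 homozygous for loss of Nr1d1 (Nr1d1-/-, called KO here), the gene of the clock repressor Rev-erb alpha, a nuclear receptor. All were 10 to 12 weeks old, ate normal chow under a 12 h day and a 12 h night, and gave their livers at ZT10, 10 h after lights on. The KO line was on the C57Bl/6 background after 7 or more generations of backcrossing, while the WT C57Bl/6 mice were purchased, so genotype and source of the animals cannot be told apart. The series holds 1 time of day, and each liver was hybridised alone to a Mouse Gene 1.0 ST array.

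These enzymes share one protein family and act on the same kind of substrate, fatty or bile acids bound to coenzyme A. BAAT joins bile acids to taurine or glycine in the peroxisome, which makes the bile salts that the liver secretes, and ACNAT1 is a peroxisomal relative that joins long-chain fatty acids to taurine. The ACOT enzymes instead release the fatty acid and free coenzyme A, ACOT1 in the cytosol, ACOT2 in mitochondria and ACOT3, ACOT4 and ACOT6 in peroxisomes. The thioesterase genes are known targets of the fatty acid receptor PPARalpha, and their transcripts rise in liver on fasting.

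Values are log2 of the authors' normalized probe set intensity, and a difference is KO minus WT on that scale with the standard error (SE) of a fit over all genes. Differences of other genes were tested by limma, with Benjamini-Hochberg adjustment over all genes and calls at an adjusted p under 0.05. Median intensities of the 10 arrays ran from 156 to 165, and the median difference over all genes was 0.01. The hepatocyte markers Alb, Ttr, Apoa1, Apoh, Fgb and Hnf4a had list means of 13.51 to 13.55 in WT and 13.55 to 13.59 in KO, with 0 of 6 called in limma and 1 (Apoh) at an unadjusted p under 0.05. Over all 19933 genes tested, 3461 had an unadjusted p under 0.05. Of 40 measured markers of other cell types, 1 was called, Sox9 of the cholangiocyte list, higher by 0.62 in KO (adjusted p = 0.0129). Means of the 4 measured cholangiocyte markers ran from 7.12 to 7.32 in WT and from 7.25 to 7.51 in KO. Only Sox9 of them was higher in KO, as Krt19, Krt7 and Epcam differed by -0.02, -0.11 and -0.01, and the list median was -0.01. An unadjusted p under 0.05 in limma was also found for 2 of 5 endothelial markers, with a list median of 0.20. The same held for 1 of 5 stellate cell, 1 of 4 adipocyte and 1 of 4 kidney markers. In the Kupffer cell, lymphocyte, neutrophil and pancreas lists it held for 0. The part of these markers in the results was not tested. In these bulk livers fewer cells of a type and less RNA per cell cannot be told apart. Nr1d1 itself read 9.78 ± 0.16 in WT against 9.92 ± 0.45 in KO livers (SD, n = 5 each). The sources used here do not say whether this probe set lies in the deleted stretch, and one that lies elsewhere checks nothing about the labels.

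Acnat2, a close relative of Acnat1 and Baat, showed the widest gap between genotypes among the 8 genes. In WT the single livers read 8.49, 8.18, 8.44, 9.08 and 8.56, and in KO they read 11.02, 10.74, 10.75, 11.17 and 11.29. The lowest KO liver thus lay 1.66 above the highest WT liver, and all 5 livers of each genotype stood apart from the other genotype. The WT mean was 8.55, the SD was 0.33 in WT and 0.25 in KO (n = 5 each), and the difference of the means was 2.45 with SE 0.15, or 5.45-fold. On the linear scale its intensity was 383 ± 93.7 in WT and 2067 ± 353 in KO. In WT it lay between the lower and upper quartiles of each array, and in KO it lay above the upper quartile of every array.

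Acnat1, which makes N-acyl taurines, also read higher in each KO liver than in any WT liver. The WT livers gave 11.53, 11.45, 11.35, 11.70 and 11.88, and the KO livers gave 12.34, 12.32, 12.25, 12.44 and 12.34. The groups did not overlap, and the KO livers lay within 1.14-fold of one another. The difference was 0.76 with SE 0.088, or 1.69-fold. Its probe set was already above the upper quartile in all 10 arrays.

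Baat, the bile acid conjugating enzyme, differed least of these 3 genes. The WT livers read 11.29, 11.08, 11.17, 11.44 and 11.38, and the KO livers read 11.51, 11.50, 11.38, 11.51 and 11.57. The groups overlapped in 1 KO liver, replicate 3, which lay below WT replicates 4 and 5, while the other 4 KO livers lay above all WT livers. Means were 11.27 ± 0.15 and 11.49 ± 0.071 (SD, n = 5 each), and they lay 0.22 apart with SE 0.070, or 1.16-fold. The order of the differences among the acyltransferases, Acnat2 above Acnat1 above Baat, was seen in the main fit and in all 18 alternatives. Acnat1 and Acnat2 are close paralogs, so their probe sets may share signal, and how far they do was not measured here.

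**Figure D1:**
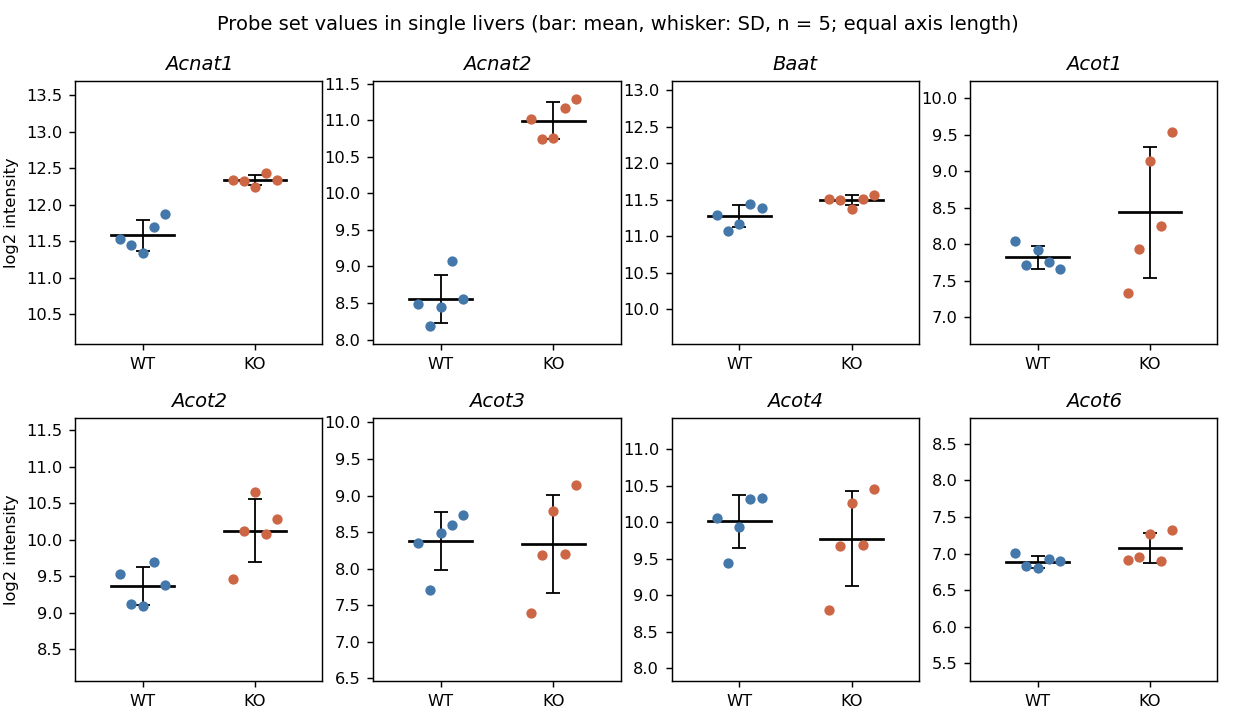
Log2 intensity of the 8 probe sets in single livers, WT in blue and KO in orange, with the mean and SD of 5 livers each; each panel spans the same length of axis. Acnat2 and Acnat1 show separate genotypes, Baat a small shift, and Acot1, Acot2, Acot3 and Acot4 a wide scatter among KO livers.

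Among the thioesterase genes, Acot2 and Acot1 had the largest differences, with higher KO means, and both varied widely among KO livers. Acot2, the mitochondrial enzyme, read 9.54, 9.12, 9.09, 9.70 and 9.38 in WT and 9.47, 10.12, 10.65, 10.08 and 10.29 in KO. KO replicate 1 lay inside the WT range and the other 4 KO livers lay above it. The difference was 0.76 with SE 0.19, or 1.69-fold.

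Acot1, the cytosolic enzyme, had the widest scatter of the 8 genes among KO livers, though not among WT livers. WT livers gave 8.05, 7.71, 7.92, 7.76 and 7.67, while KO livers gave 7.33, 7.94, 9.14, 8.25 and 9.54. KO replicate 1 lay below every WT liver and KO replicates 3, 4 and 5 lay above every WT liver, so the groups overlapped. The highest KO liver stood 4.60-fold over the lowest, against 1.31-fold among WT livers. The mean difference of 0.62 had an SE of 0.33, and it was 0.34 without KO replicate 5, 0.44 without KO replicate 3 and 0.89 without KO replicate 1.

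The peroxisomal thioesterase genes Acot3 and Acot4 showed no gap between genotypes that exceeded their spread. Acot4, whose enzyme prefers succinyl-CoA and other dicarboxylic substrates, read 10.05, 9.45, 9.94, 10.31 and 10.34 in WT and 8.80, 9.67, 10.27, 9.68 and 10.46 in KO. Both the lowest and the highest of the 10 livers were KO livers. Its difference was -0.24 with SE 0.27, and 0.004 without KO replicate 1. Acot3 read 8.35, 7.71, 8.49, 8.60 and 8.73 in WT and 7.39, 8.19, 8.79, 8.20 and 9.14 in KO, with a difference of -0.03 and SE 0.28. Its difference changed sign when single livers were left out, from -0.23 without KO replicate 5 to 0.20 without KO replicate 1.

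Acot6 read within a narrow range, from 6.80 to 7.00 in WT and from 6.90 to 7.32 in KO, with KO replicates 3 and 5 above all WT livers. Its difference was 0.18 with SE 0.087. Acot5, the one gene of this run outside the named members, lay below the lower quartile of all 10 arrays at 4.85 ± 0.12 in WT and 4.94 ± 0.11 in KO (SD, n = 5 each), so it is not shown to be above background.

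As a description, 3 of the 8 genes passed the adjusted threshold of the fit, Acnat1, Acnat2 and Acot2, all higher in KO, while 3.17% of all genes tested were called higher, 2.44% lower and 5.61% in either direction. All KO livers lay above all WT livers in 2 of the 8 genes and in 3.99% of all genes, and below them in 0 of the 8 and in 3.02% of all genes. Since the contrast chose the genes, nothing is read from these shares. Acot2 did not pass when any 1 of WT replicates 2, 3 and 5 or KO replicates 2, 3, 4 and 5 was left out, nor with array weights, with a trended and robust variance or without the 3 arrays of widest interquartile range, and Baat passed without WT replicate 4. The median difference of the 8 genes was 0.42.

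The livers of one genotype did not scatter alike in the 2 enzyme classes. The SD among KO livers was larger than that among WT livers in all 5 thioesterase genes, by 5.58 times in Acot1, 2.50 in Acot6, 1.79 in Acot4, 1.68 in Acot3 and 1.63 in Acot2. In the 3 acyltransferase genes it was smaller, at 0.75 times in Acnat2, 0.48 in Baat and 0.32 in Acnat1. Over all genes the median of this ratio was 1.02, and a ratio at least that of Acot1 was found in 94 genes (0.472%). The ratios of Acot6, Acot4, Acot3 and Acot2 were reached or passed by 6.58%, 16.4%, 19.1% and 20.8% of all genes, and those of Acnat2, Baat and Acnat1 by 69.7%, 89.1% and 96.4%. With 5 livers a group each SD is itself imprecise, and the ratios were not tested.

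Deviations of single livers from their genotype mean, which the choice of genes did not use, moved together within each class. Among the 5 thioesterase genes the Pearson correlation of these deviations over the 10 livers lay between 0.71 and 0.98 in all 10 pairs, with Spearman values from 0.62 to 0.99. Acot3 and Acot4 followed each other most closely, at 0.98 by Pearson and 0.99 by Spearman, and at 0.96 without the 2 livers farthest from the median of Acot3. Their WT livers alone gave 0.95. Acot1 was different in WT, where its correlation with Acot3 was 0.04 and with Acot4 -0.02, against 0.98 and 0.97 in KO livers, over 5 livers each. Without the 2 farthest livers the thioesterase pairs ran from 0.49 to 0.96, and the lowest leave-one-out value, 0.43, was that of Acot1 and Acot2 without KO replicate 1. Points share arrays and near-identical sequences may share probes, so these values are descriptions.

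Acnat1, Acnat2 and Baat also followed one another, while across the classes the correlations over the 10 livers were lower. Their 3 pairs gave 0.52 for Acnat1 and Acnat2, 0.78 for Acnat1 and Baat and 0.83 for Acnat2 and Baat by Pearson, and 0.75 to 0.90 by Spearman. Without the 2 livers farthest from the median of the first gene of a pair they ran from 0.61 to 0.86. The value for Acnat1 and Acnat2 was 0.76 without WT replicate 5, the WT liver with the highest Acnat1, and 0.43 without WT replicate 2. The 15 pairs between the classes ran from -0.18 to 0.37 with a median of 0.21 by Pearson, and from -0.27 to 0.43 by Spearman. Without KO replicate 3 that median was 0.43, the value for Baat and Acot2 went from 0.23 to 0.62 and that for Acnat2 and Acot2 from 0.23 to 0.55; without WT replicate 2 the median was 0.10. The genotypes differed here. In the 5 WT livers the 12 pairs without Acot1 ran from 0.44 to 0.95 and the 3 with Acot1 from -0.55 to -0.08, while in the 5 KO livers all 15 pairs ran from -0.60 to 0.25. The difference between genotypes in these values, each over 5 livers, was not tested. KO replicate 1, the lowest KO liver for Acot1, Acot2, Acot3 and Acot4, read 11.02 for Acnat2 and 12.34 for Acnat1, both at the KO median.

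Ppara, which encodes PPARalpha, was followed by the thioesterase genes over the 10 livers, and in WT livers alone by all of the 8 genes but Acot1. Its level did not differ beyond its spread between genotypes, at 11.75 ± 0.16 in WT and 11.97 ± 0.26 in KO (SD, n = 5 each, difference 0.22, limma adjusted p = 0.377). In single KO livers it read 11.54, 11.94, 12.16, 12.02 and 12.18, again lowest in replicate 1 and highest in replicates 3 and 5. The deviations of Ppara correlated with those of Acot4 at 0.96 (Spearman 0.95, and 0.90 without the 2 farthest livers), of Acot2 at 0.93, of Acot3 at 0.90, of Acot1 at 0.77 and of Acot6 at 0.73. The value for Acot1 was 0.41 without the 2 farthest livers and 0.51 without KO replicate 1. For Acnat1, Acnat2 and Baat the same measure gave 0.35, 0.37 and 0.39. In the 5 WT livers alone these 3 genes gave 0.77 to 0.96 with Ppara, against 0.03 for Acot1 and 0.74 to 0.91 for the other 4 thioesterase genes. In the 5 KO livers the 3 acyltransferase genes gave -0.17 to 0.08 and the 5 thioesterase genes 0.72 to 0.98. The difference between genotypes in these values was not tested. Acot2 deviations also followed the mean of the other PPARalpha targets at 0.95 (Spearman 0.96, and 0.92 without the 2 farthest livers). Acot6 and Acot4 gave 0.87 with that mean, Acot3 0.80 and Acot1 0.79, against 0.32 for Acnat2, 0.26 for Baat and 0.12 for Acnat1. Ppara is itself among the 19 genes of that mean, so the mean is not separate from it. These comparisons with Ppara and the list mean were chosen after the values were seen.

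**Figure D2:**
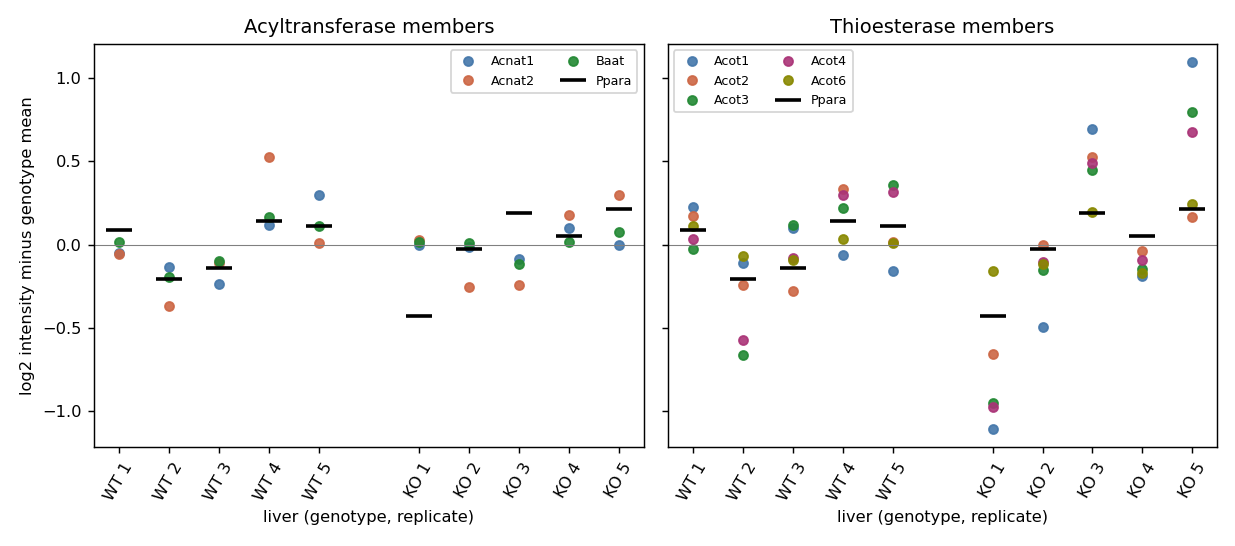
Deviation of each liver from its genotype mean (log2 intensity), acyltransferase genes on the left and thioesterase genes on the right, with Ppara as black dashes; livers have no order. KO replicate 1 lies low and KO replicates 3 and 5 high for Acot1, Acot2, Acot3, Acot4 and Ppara, while in the left panel KO replicate 1 lies near 0.

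The genes of both classes lie in 2 compact runs, Acnat2, Acnat1 and Baat next to one another on chromosome 4, and Acot2, Acot1, Acot4, Acot3, Acot5 and Acot6 on chromosome 12, while Nr1d1 lies on chromosome 11. On chromosome 4 the 5 measured genes on either side had differences from -0.06 to 0.08, and 0 of these 10 genes were called in limma or had an unadjusted p under 0.05. Plppr1 and Mrpl50, the nearest measured genes, differed by 0.02 and 0.07. Several of these neighbours were dim, beside lower quartiles of the arrays from 6.22 to 6.35. Tmeff1 had a WT mean of 5.61, and Msantd3, Plppr1, Pgap4, Grin3a and Cavin4 had WT means from 6.27 to 6.45. These dim genes are not shown to be above background, so their small differences say little. Over all 19933 genes tested, 5.61% were called and 3461 had an unadjusted p under 0.05. On chromosome 12 the 10 flanking genes ran from -0.16 to 0.24, with 1 called and 3 at an unadjusted p under 0.05. The others of these 3 were Rbm25 (-0.16, limma adjusted p = 0.126) and Mideas (0.14, limma adjusted p = 0.107), named after their values were seen. In both the genotypes did not overlap, which held for 7% of all genes. The called gene was Ptgr2, which encodes a prostaglandin reductase and rose by 0.24 (adjusted p = 0.0254), and it was no longer called when any 1 of 5 arrays was dropped (adjusted p reaching 0.0658). Within the chromosome 12 run the differences had both signs. Acot2, Acot1, Acot6 and the dim Acot5 had higher KO means, and Acot4 and Acot3 had lower ones. The differences of Acot4 and Acot3 were smaller than their SE. Order of genes was taken from RefSeq (GRCm38.p6).

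**Figure D3:**
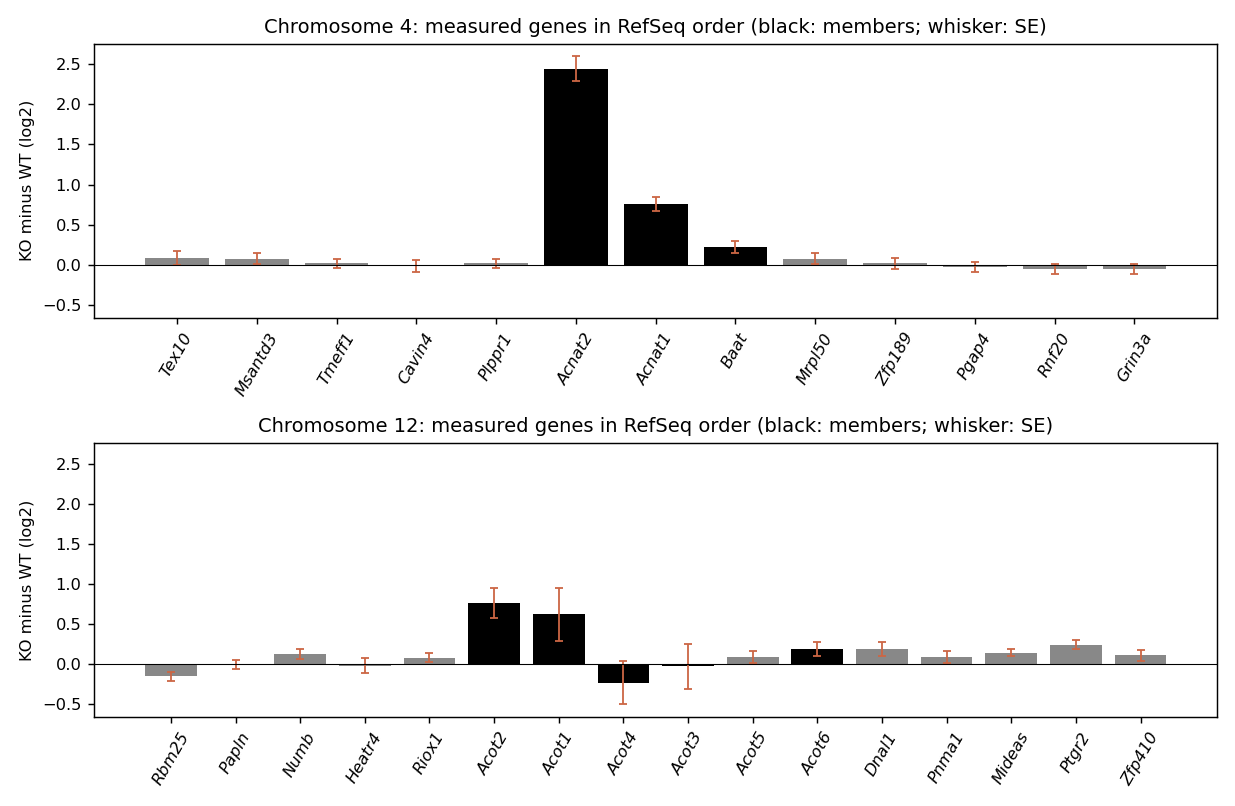
Difference between KO and WT (log2, whiskers are SE) for the members in black and the measured genes around them in grey, in chromosome order with equal spacing. Acnat2, Acnat1 and Baat stand above 10 neighbours that all lie between -0.06 and 0.08, while the thioesterase run holds bars of both signs.

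RefSeq promoter sequences (GRCm38.p6) were found for 6 of the 8 genes and are shown for those whose levels set the pattern above, as the 250 bases before the annotated start. Capitals mark matches to the motifs searched, and sequences without capitals had none.
Acnat2, chr4:49408152-49408401, minus strand: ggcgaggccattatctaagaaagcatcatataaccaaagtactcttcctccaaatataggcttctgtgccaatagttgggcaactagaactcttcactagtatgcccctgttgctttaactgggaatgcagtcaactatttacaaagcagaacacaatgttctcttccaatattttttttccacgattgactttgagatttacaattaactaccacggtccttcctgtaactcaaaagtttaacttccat
Acnat1, chr4:49451110-49451359, minus strand: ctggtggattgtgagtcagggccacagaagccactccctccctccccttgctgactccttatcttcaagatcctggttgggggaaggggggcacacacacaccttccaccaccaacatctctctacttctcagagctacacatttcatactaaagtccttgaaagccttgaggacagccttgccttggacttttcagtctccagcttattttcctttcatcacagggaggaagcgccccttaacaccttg
Acot2, chr12:83987611-83987860, plus strand: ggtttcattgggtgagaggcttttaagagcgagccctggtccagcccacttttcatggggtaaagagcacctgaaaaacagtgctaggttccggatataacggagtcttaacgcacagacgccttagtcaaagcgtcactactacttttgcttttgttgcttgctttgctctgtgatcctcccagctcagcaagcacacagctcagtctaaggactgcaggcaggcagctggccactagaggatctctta
Acot1, chr12:84009252-84009501, plus strand: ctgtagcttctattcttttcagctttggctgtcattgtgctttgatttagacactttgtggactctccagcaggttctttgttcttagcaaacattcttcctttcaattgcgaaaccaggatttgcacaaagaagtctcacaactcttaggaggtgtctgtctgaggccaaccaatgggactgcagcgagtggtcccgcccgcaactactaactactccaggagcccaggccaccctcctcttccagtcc
Acot4, chr12:84038129-84038378, plus strand: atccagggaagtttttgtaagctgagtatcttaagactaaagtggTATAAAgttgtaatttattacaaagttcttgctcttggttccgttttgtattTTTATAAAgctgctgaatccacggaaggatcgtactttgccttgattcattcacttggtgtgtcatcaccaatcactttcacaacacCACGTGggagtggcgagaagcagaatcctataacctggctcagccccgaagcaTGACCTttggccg

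Motifs were searched on both strands in windows from 250 bases before to 50 after the start, 8 windows for these 6 genes, and in all 32851 windows of that length. They were the nuclear receptor element AGGTCA and its variant GGGTCA, the Rev-erb and ROR element (RORE), which is either of those letters with AANT just before them, 2 copies of AGGTCA in a row with 1 or 2 bases of any kind between them, the E-box CACGTG, the D-box TTATGTAA and TATAAA. The RORE and repeat motifs contain the shorter elements. The upstream window of Acot4 held AGGTCA on the opposite strand, read as TGACCT at -13, an E-box at -66 and 3 matches to TATAAA, of which those at -153 and -151 overlap. AGGTCA was found in 16.3% of all windows, the E-box in 7.15% and TATAAA in 13.6%. Acot3 had 1 AGGTCA on the opposite strand, just after its start. Neither the Acnat1 window nor the 2 windows of Acnat2, which has 2 annotated starts, held any of these letters, and the RORE, which 0.435% of all windows held, was in none of the 8. A match is a description of letters only, and these windows leave out more distant sequence. Upstream of its first start Acnat2 had 38.4% G and C, and upstream of its other start 38.8%, against 51.6% in Acnat1. The 10th percentile of all windows was 38.8%.

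Other genes that handle the same substrates were taken from lists, set beside a median difference of 0.01 over all genes and 5.61% called. Over all 19933 genes tested, 3461 had an unadjusted p under 0.05 in limma, which is the background for counts at that threshold. Of 10 other acyl-CoA thioesterase genes 0 passed in limma, though 4 had an unadjusted p under 0.05. Acot11 differed by 0.41 (adjusted p = 0.0826), the cytosolic Acot12 by 0.20 (adjusted p = 0.0848), Acot8 by 0.24 (adjusted p = 0.287) and Them5 by -0.21 (adjusted p = 0.0644). All 4 were named after their values were seen, and the median of the list was 0.08.

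Of 10 genes of bile acid activation, side chain shortening and export, 3 rose and 1 fell, with a median of 0.08. The side chain oxidase Acox2 rose by 0.48 (SE 0.064, limma adjusted p = 0.000726) and the bile salt export pump Abcb11 by 0.43 (SE 0.054, limma adjusted p = 0.000566). Slc27a2, an acyl-CoA synthetase, rose by 0.16 at an adjusted p of 0.0499, and was no longer called when any 1 of 9 arrays was dropped (adjusted p reaching 0.113). Scp2, which encodes a peroxisomal thiolase and a sterol carrier, fell by 0.28 (adjusted p = 0.0102). Slc27a5, which activates bile acids for BAAT, had a difference of 0.13 and did not pass (adjusted p = 0.112).

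Genes that supply taurine or join acids to amino acids went both ways, 3 higher and 2 lower of 11. Csad, the decarboxylase of taurine synthesis, fell by 1.08 (SE 0.14, limma adjusted p = 0.000545), while Cdo1, the dioxygenase one step before it, rose by 0.31 (adjusted p = 0.00269). Gm4952, a glycine acyltransferase-like gene, rose by 0.82, the related Keg1 fell by 0.59 and Pm20d1, whose enzyme makes and splits N-acyl amino acids, rose by 0.26. Glyat itself differed by -0.10 (adjusted p = 0.403).

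In the lists of peroxisomal oxidation and PPARalpha targets more genes rose than fell. Of 12 measured peroxisomal genes 4 rose and 0 fell, with 6 at an unadjusted p under 0.05, all higher, and a median of 0.23. Those that rose were the lyase Hacl1 (0.68), the bifunctional enzyme Ehhadh (0.58), the carnitine octanoyltransferase Crot (0.40) and the isomerase Ech1 (0.36). Without the 3 arrays of widest interquartile range, WT replicate 1 and KO replicates 4 and 5, only Hacl1 of these 4 passed. Of 19 other PPARalpha targets 6 rose and 1 fell, with a median of 0.28. The omega-hydroxylases Cyp4a14 and Cyp4a10 rose by 1.95 and 0.72, the fatty acid transporter Cd36 by 1.57 and the pantetheinase Vnn1 by 1.06. The gene that fell was Cyp4a12a (-0.41, adjusted p = 0.0285), named after its value was seen, and it was no longer called when any 1 of 6 arrays was dropped (adjusted p reaching 0.0725). Coenzyme A synthesis and breakdown genes had a median of 0.01, with 1 of 12 called, the peroxisomal coenzyme A diphosphatase Nudt7, which fell by 0.37 (adjusted p = 0.00676, and 0.108 without those 3 arrays).

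**Figure D4:**
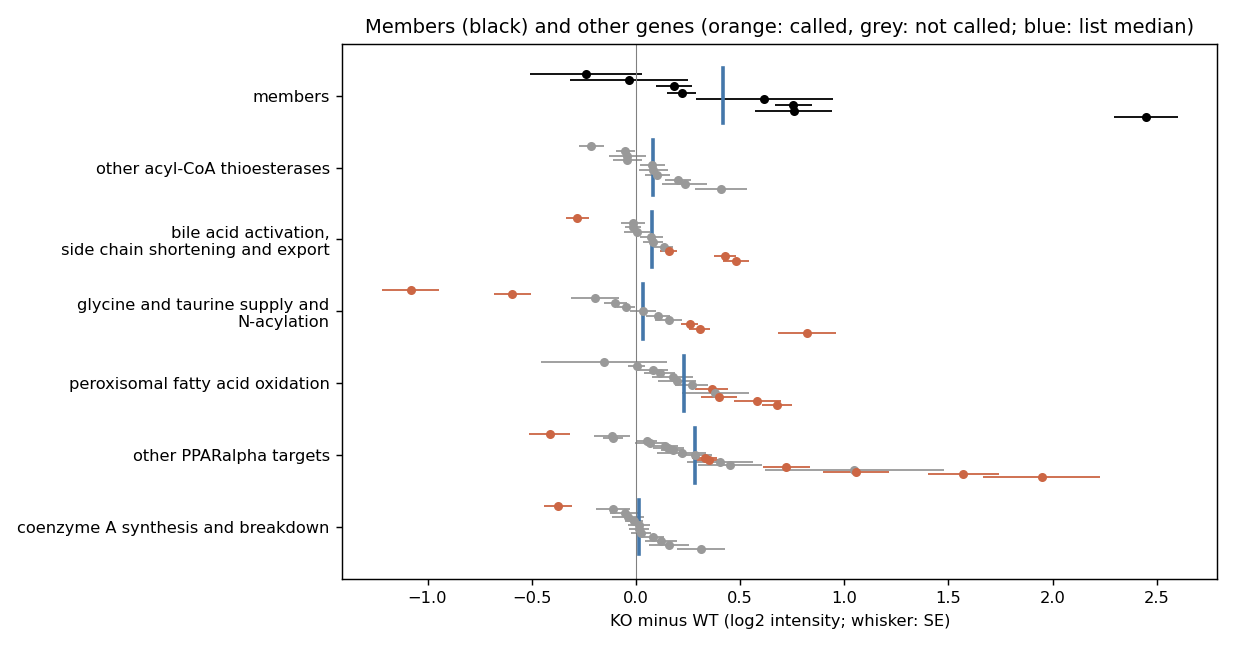
Difference between KO and WT (log2, whiskers are SE) of the 8 members and of each measured gene in 6 lists, called genes in orange and the list median in blue. The members reach from -0.24 to 2.45, and the list medians from 0.01 to 0.28.

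The genes whose deviations from the genotype mean were most like those of Acnat2 over the 10 livers were Azgp1 (Pearson 0.96, Spearman 0.98), Cxcl12 (0.95 and 0.96), Zfand3 (0.93 and 0.93), Ppp6r3 (0.92 and 0.89) and Gm6498 (0.92 and 0.90). They are the highest of 19932 correlations. Without the 2 livers farthest from the Acnat2 median the Pearson values ran from 0.88 to 0.93. None of these 5 genes passed the genotype test in limma, and their differences ran from -0.24 to 0.23.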

How the data were processed

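RNA of 10 mouse livers was hybridised to Mouse Gene 1.0 ST arrays. The authors deposited normalized intensity per probe set, on a linear scale from 8.93 to 18280 as the values show. Per the submitters' processing notes, RMA and Partek were involved, and versions are not known here. Filters, detection calls and the exact normalization are not given in the sources used here, so signal over background is unknown and the number of arrays limits the precision. Of 27541 probe sets, 21631 had 1 gene symbol in the array annotation, 1317 had several and 4593 had none. Log2 was taken, and the probe set of the highest mean stood for a gene.

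KO was compared with WT by limma 3.58.1 (R 4.3.3; lmFit, eBayes, two-sided, no covariates) over 19933 genes, with groups from the genotype label. The fit was tested on simulated data. Each array was 1 mouse, replicates were numbered in accession order, and p-values rest on the spread among mice. Each list's called genes were named up to 4 by smallest adjusted p, with neighbours in the runs, called flanking genes and the 5 genes most like Acnat2; Gm4952, Slc27a5, Glyat, Plppr1, Mrpl50, Cpt2, Acadm and Apoh were named after their values were seen. Of 81 entries in the other gene lists 74 were measured, and of 48 markers 46. Members, lists and tests were chosen with earlier results of these data known. Protein sequences were not used here. Alternatives covered probe set choice, dim genes, centring, quantile normalization, an added 16 before log2, variance model, array weights and left-out arrays.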

Additional observations from a re-analysis of the deposited data

Results flagged for a closer look

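KO replicate 1 read 13.18 for Cyp4a14, while the other 4 KO livers lay between 13.53 and 13.63, so 1 liver stood far from the rest of its group. The same liver was the lowest KO liver for Acot1, Acot2, Acot3, Acot4 and Ppara. Of 62 groups looked at for 31 genes this was the 1 found. Chance alone gives about 1 in 20 groups, so 1 of 62 is no more than chance gives.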

How the results depend on the processing

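The count of genes called, 1119 (632 higher and 487 lower in KO), fell to 527 (295 and 232) without the 3 arrays of widest interquartile range, with fewer arrays in the fit. In the other 7 alternatives that kept all arrays it lay between 986 and 1239, and with single arrays left out between 805 and 1248 (452 to 637 higher and 349 to 611 lower). Of the 8 genes described, 2 to 4 passed with single arrays left out and 2 or 3 otherwise. The Acnat2 difference lay between 2.28 and 2.58 and that of Acnat1 between 0.70 and 0.83 in all 18 alternatives. Acot2 ranged from 0.63 to 0.92, Acot1 from 0.34 to 0.89 and Baat from 0.17 to 0.26. The calls of Ehhadh, Crot, Ech1, Scp2, Cpt2, Acadm, Nudt7 and Sox9 were lost without the 3 arrays of widest range (adjusted p from 0.0643 to 0.110), as were those of Ptgr2 (0.120), Acot2 (0.176) and Slc27a2 (0.227). Slc27a2 also lost its call when arrays were centred (0.0933) or quantile-normalized (0.0589) or weighted (0.0610). Median correlations of deviations lay between 0.71 and 0.84 among the thioesterase genes with single livers left out, between 0.73 and 0.81 among the acyltransferase genes, and between 0.10 and 0.43 across them, the last without KO replicate 3. No paired analysis was possible because the labels give no replicate numbers that the genotypes share.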

Other observations

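The Nr1d1 probe set varied among KO livers, where its deviations followed those of the 5 thioesterase genes at 0.72 to 0.98. It read 9.29, 9.77, 10.54, 9.95 and 10.04 in KO livers and 9.60 to 10.00 in WT livers. Over the 10 livers the deviations from the genotype mean correlated with those of Acot2 at 0.89 (Spearman 0.87), at 0.60 without the 2 livers farthest from the Acot2 median, and at 0.77 without KO replicate 1. Acot1 gave 0.79, Acot6 0.73, Acot4 0.70 and Acot3 0.61, and without KO replicate 1 Acot4 gave 0.36 and Acot3 0.23. In the 5 WT livers alone Acot6 gave 0.78, Acot2 0.62, Acot1 0.45, Acot4 -0.04 and Acot3 -0.28. For Acnat1, Acnat2 and Baat the same measure gave -0.13, -0.06 and -0.19. These values were noticed in the data and are given as a description.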
